A study of Mus musculus with 6 samples.

Results

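The genes described here encode the transport machinery and the gate of the primary cilium. They comprise the intraflagellar transport complexes IFT-A and IFT-B, the retrograde motor dynein-2, the BBSome with its chaperonin-like assembly factors, the adaptor Tulp3, the transition fibre protein Cep164 and proteins of the transition zone. The members are 33 gene symbols picked for these roles and not by their values, although earlier results of these data were known. 32 of the 33 were measured among the 22180 genes tested. Tmem216, a membrane protein gene of the transition zone, was left out because its probe set is annotated to several genes. Tmem67 alone had more than 1 probe set, of which the brighter was used.

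Affymetrix arrays measured mRNA in primary lung fibroblasts, cultured from adult mice of mixed strain. 3 wells were given 4-hydroxytamoxifen (4OHT, the active metabolite of tamoxifen) at 1 µg/ml for 48 h, and 3 wells were given vehicle. All 6 wells held cells of 1 genotype number, UBCCreERT/RSmoM2, in which a tamoxifen-activated Cre recombinase under the broadly active ubiquitin C promoter switches on an allele of SmoM2, a constitutively active Smoothened, from the Rosa26 locus. No wells lacking Cre or the allele were analysed here, so the drug, the active Cre and the expressed SmoM2 cannot be told apart. The wells were split from isolated cells and nothing in the labels places them in separate animals. The p-values thus weigh differences against well-to-well spread only, perhaps technical, and the number of arrays limits their precision.

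The primary cilium is a single microtubule-based projection of most quiescent or slowly dividing cells, including fibroblasts. IFT-B trains carried by kinesin-2 move cargo to the tip, IFT-A trains carried by dynein-2 return it, and the BBSome takes membrane proteins out. The transition zone at the base decides which proteins enter. Vertebrate hedgehog signalling runs through this organelle, with Smoothened accumulating in its membrane when the pathway is on, and the cilium is taken apart before a cell divides. The arrays report mRNA and do not count cilia.

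The arrays were alike, with Pearson's r across genes, which are not independent replicates, of 0.997 to 0.998 within a group and 0.995 to 0.996 between groups. The 8 fibroblast markers stood between 9.50 and 14.17 in log2 expression on every array, Col1a1 among them at 13.71 ± 0.01 in 4OHT wells and 13.74 ± 0.01 in vehicle wells (SD, n = 3 each). 7 of the 8 had a log2 fold change below 0, 5 of them with groups that did not overlap, and 1, the collagen gene Col3a1, was called lower (log2 fold change -0.29, adjusted p = 0.00936). Multiciliated epithelium builds its motile cilia with the same machinery. Of 12 markers of that cell type, none was higher in 4OHT wells by limma (none at an unadjusted p under 0.05) and 1, Ccno, was lower (log2 fold change -0.26, adjusted p = 0.0185). Ccno missed the threshold when 4OHT replicate 2, 4OHT replicate 3 or vehicle replicate 2 was left out (adjusted p up to 0.0769). The linear signal of the 12 markers summed to between 1114 and 1149 in 4OHT wells and to between 1142 and 1167 in vehicle wells. Foxj1, the master regulator of motile cilia, differed by 0.01 on the log2 scale (adjusted p = 0.958). Among markers of other cells of the lung, 4 of 5 smooth muscle and pericyte markers were lower, their summed signal lying between 35944 and 37781 in 4OHT wells and between 45866 and 46059 in vehicle wells. Of 5 endothelial markers 2 were higher and 3 lower, of 5 macrophage markers 1 was higher, and of 7 epithelial markers 1 was lower. The part of these cells in the results below was not tested.

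The cilium genes lay close to their vehicle level, and a few rose. 3 of the 32 members, Dync2h1, Bbs7 and Rpgrip1l, were higher in 4OHT wells at an adjusted p under 0.05, by 1.19-fold to 1.30-fold, and none was lower by limma (1 at an unadjusted p under 0.05). Over all genes 5.38% were called higher and 6.62% lower, 12.0% in all. The members' share was 9.38%, all of it higher, and lay near the total share of all genes. That background includes dim genes, while 31 of the 32 members lay above the median level. In a fit of the genes above that level alone, 35.0% of genes and 9 of 31 members were called. The 3 belong to different machines, the motor of retrograde transport, the BBSome and the transition zone. The median log2 fold change (4OHT minus vehicle) of the 32 members was 0.00, with 16 above 0 and 16 below, and the median of all genes was -0.01. The median size of the change, without its sign, was 0.09 in the members and 0.09 over all genes. In bulk wells, more RNA per cell and more cells of a kind that makes it cannot be told apart.

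**Figure D1:**
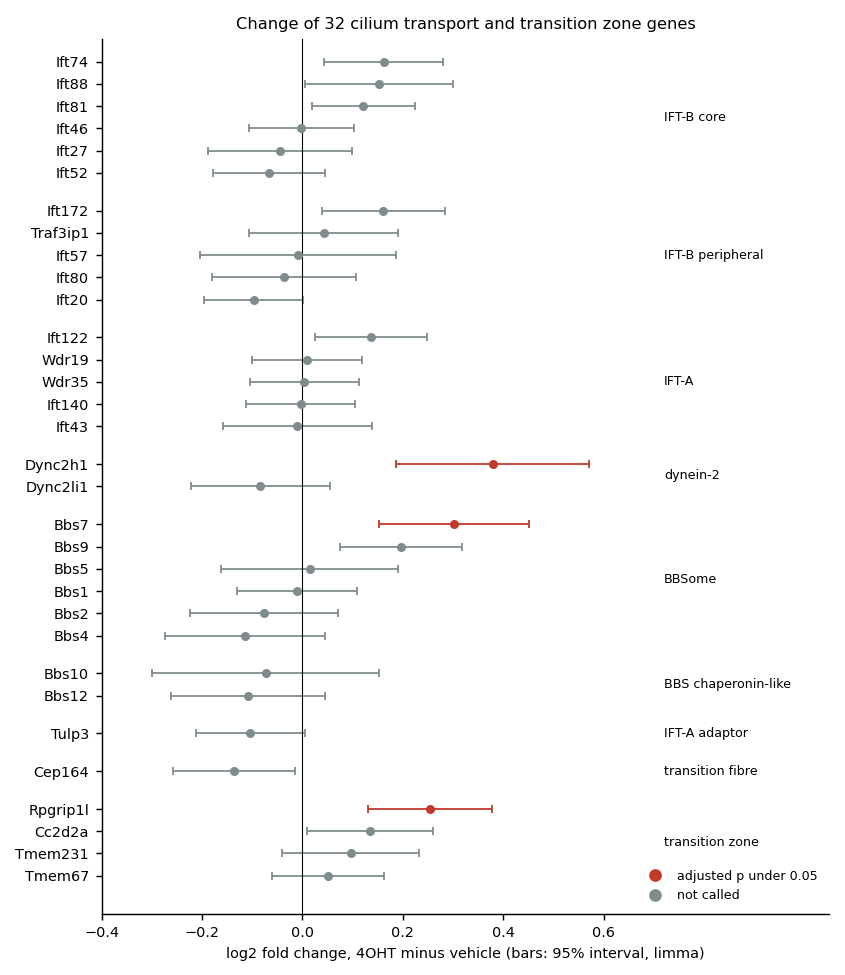
Log2 fold change of each of the 32 members, 4OHT minus vehicle, on the horizontal axis, with members grouped by role down the page; points are limma estimates from 3 arrays against 3 and bars their 95% intervals. The 3 members called (red) lie at 0.25 to 0.38, and the other 29 (grey) lie between -0.14 and 0.20.

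Dync2h1 encodes the heavy chain of dynein-2, the motor subunit that hydrolyses ATP and pulls IFT trains back to the cell body. Its log2 expression was 8.05, 7.95 and 7.77 in 4OHT wells, against 7.55, 7.47 and 7.61 in vehicle wells. The groups did not overlap, and the 4OHT wells were the more widely spread. The mean was 7.92 ± 0.14 in 4OHT wells and 7.54 ± 0.07 in vehicle wells (SD, n = 3 each), a rise of 1.30-fold (log2 fold change 0.38, SE 0.08, adjusted p = 0.0283). Dync2li1, the light intermediate chain of the same motor, was not called. It measured 9.02, 8.97 and 9.07 in 4OHT wells and 9.02, 9.11 and 9.18 in vehicle wells, a log2 difference of -0.08 (95% interval -0.22 to 0.06). The intervals of the 2 dynein-2 subunits did not overlap, but the difference between them was not tested.

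Bbs7 encodes a beta-propeller subunit of the BBSome. Its log2 expression was 9.51, 9.41 and 9.49 in 4OHT wells and 9.16, 9.08 and 9.27 in vehicle wells. Every 4OHT well lay above every vehicle well. The mean was 9.47 ± 0.05 in 4OHT wells and 9.17 ± 0.10 in vehicle wells (SD, n = 3 each), a rise of 1.23-fold (log2 fold change 0.30, SE 0.06, adjusted p = 0.0258). Rpgrip1l encodes a scaffold of the transition zone on which other gate proteins depend. It measured 9.14, 9.06 and 8.98 in 4OHT wells, against 8.80, 8.80 and 8.81 in vehicle wells. The vehicle wells were nearly equal, with an SD of 0.00344, while the 4OHT wells had an SD of 0.08. The rise was 1.19-fold (log2 fold change 0.25, SE 0.05, adjusted p = 0.0241).

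The promoters of the 3 genes are shown because the genes moved in the same direction and because RFX transcription factors bind an X-box in the promoters of many ciliary genes. Each runs from 250 bases before to 50 bases after the gene's start, from RefSeq on GRCm38.p6, on the gene's strand. Capitals mark the X-box arm GTTGCC on either strand and a whole X-box, searched as GTTNCC and GGNAAC with 1 to 3 bases between them, which can overlap an arm. The window of Dync2h1 is chr9:7177009-7177308, that of Bbs7 chr3:36613340-36613639 and that of Rpgrip1l chr8:91313173-91313472, all on the minus strand.
Dync2h1: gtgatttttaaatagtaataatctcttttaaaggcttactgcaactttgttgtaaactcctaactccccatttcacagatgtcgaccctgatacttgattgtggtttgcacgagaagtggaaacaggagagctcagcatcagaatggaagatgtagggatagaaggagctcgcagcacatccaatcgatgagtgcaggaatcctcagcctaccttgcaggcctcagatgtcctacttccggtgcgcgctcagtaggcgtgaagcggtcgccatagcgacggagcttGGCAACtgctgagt
Bbs7: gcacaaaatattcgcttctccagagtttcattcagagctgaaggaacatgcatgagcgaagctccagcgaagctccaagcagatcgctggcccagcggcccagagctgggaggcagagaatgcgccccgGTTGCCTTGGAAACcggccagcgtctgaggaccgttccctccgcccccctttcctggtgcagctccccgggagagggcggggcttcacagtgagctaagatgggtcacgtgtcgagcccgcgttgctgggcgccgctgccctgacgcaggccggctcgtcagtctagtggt
Rpgrip1l: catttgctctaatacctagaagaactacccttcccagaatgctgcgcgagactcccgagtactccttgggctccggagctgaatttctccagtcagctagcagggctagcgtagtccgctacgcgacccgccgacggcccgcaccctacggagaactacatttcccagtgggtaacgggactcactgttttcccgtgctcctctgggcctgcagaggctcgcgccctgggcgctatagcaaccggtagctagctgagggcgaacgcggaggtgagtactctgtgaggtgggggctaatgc

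Bbs7 carried 1 whole X-box, whose first base lay at position -121 from the start, and Dync2h1 carried 1 arm after its start. Neither motif was found in the Rpgrip1l window. Looser forms of the X-box were not searched in any window. 28 of the 33 members had a promoter in the RefSeq table, and Ift80, Ift81, Ift122, Dync2li1 and Tmem67 had none. Among their 29 promoters, 13 (44.8%) held the arm, against 12.5% of all 32851 promoters of the same length. A whole X-box stood in 2 of the 29 (6.90%), those of Bbs7 and Ift57, against 0.776% of all promoters. Ift57, which encodes a peripheral IFT-B subunit, had a log2 fold change of -0.01, against 0.30 for Bbs7; the difference between them was not tested. Median base composition was 58.3% G and C in the members' promoters and 52.7% in all promoters. 5 of the 6 measured RFX genes had a log2 fold change above 0 and none was called by limma (2 at an unadjusted p under 0.05). Rfx2 came nearest, at 0.21 (adjusted p = 0.0523).

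2 genes next to these members on the chromosome fell. Ccna2, the cyclin A2 gene, is the protein-coding neighbour of Bbs7 in RefSeq (GRCm38.p6) on one side. It averaged 9.35 ± 0.04 in 4OHT wells and 10.93 ± 0.07 in vehicle wells (SD, n = 3 each) and fell by 1.58 on the log2 scale (adjusted p = 0.000114). Fto, an RNA demethylase gene beside Rpgrip1l, fell by 0.19 (adjusted p = 0.0301), a call that held only without 4OHT replicate 3 when single arrays were left out (adjusted p up to 0.113). Aktip, the gene on the other side of Rpgrip1l, had a log2 fold change of 0.01, and Ddi1 and Dcun1d5, on either side of Dync2h1, lay at 0.05 and 0.00, all 3 not called. These neighbours were looked up after the members' values were seen.

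The 3 calls rest on all 6 arrays together. Each fold change kept its sign and stayed between 0.22 and 0.46 with any array left out, but the adjusted p passed 0.05 in most of those fits. Without 4OHT replicate 3, Dync2h1 (adjusted p = 0.0148) and Rpgrip1l (0.0225) were called and Bbs7 was not (0.0687). Without vehicle replicate 3, Bbs7 alone was called (0.0239). Without 4OHT replicate 1, 4OHT replicate 2, vehicle replicate 1 or vehicle replicate 2, none of the 32 members was called by limma (5 to 8 at an unadjusted p under 0.05), with adjusted p for the 3 genes between 0.0590 and 0.0992. The share of all genes called fell as well, to between 5.50% and 10.5%.

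**Figure D2:**
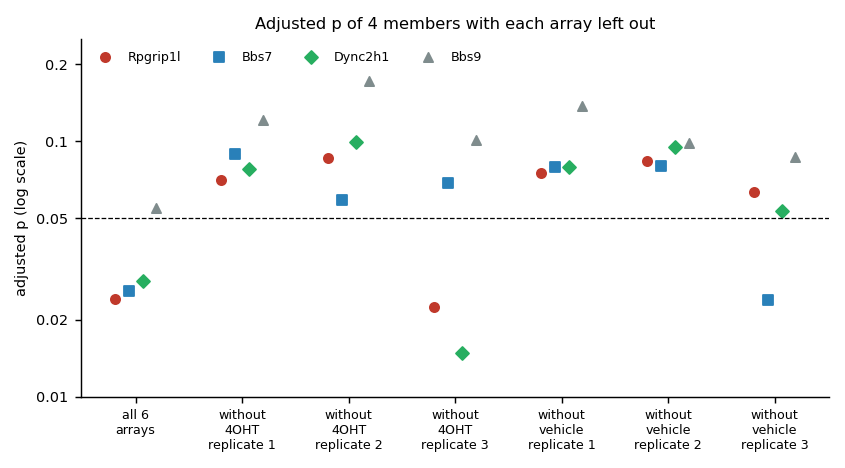
Adjusted p on a log scale for Rpgrip1l, Bbs7, Dync2h1 and Bbs9 with all 6 arrays and with each array left out in turn; the dashed line marks 0.05. The 3 called members lie between 0.0241 and 0.0283 with all arrays and reach 0.0861 to 0.0992 at their highest.

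12 of the 32 members (37.5%) had groups that did not overlap, 9 higher and 3 lower in 4OHT wells. Over all genes this was so of 32.7%, with 15.0% higher and 17.8% lower. Beside the 3 called, these were Bbs9, Ift74, Ift172, Ift122, Cc2d2a and Ift81 on the higher side and Cep164, Tulp3 and Ift20 on the lower side. By unadjusted p under 0.05 there were 11 of 32 members (10 higher, 1 lower). Over all 22180 genes there were 5858, or 26.4% (2706 higher, 3152 lower).

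**Figure D3:**
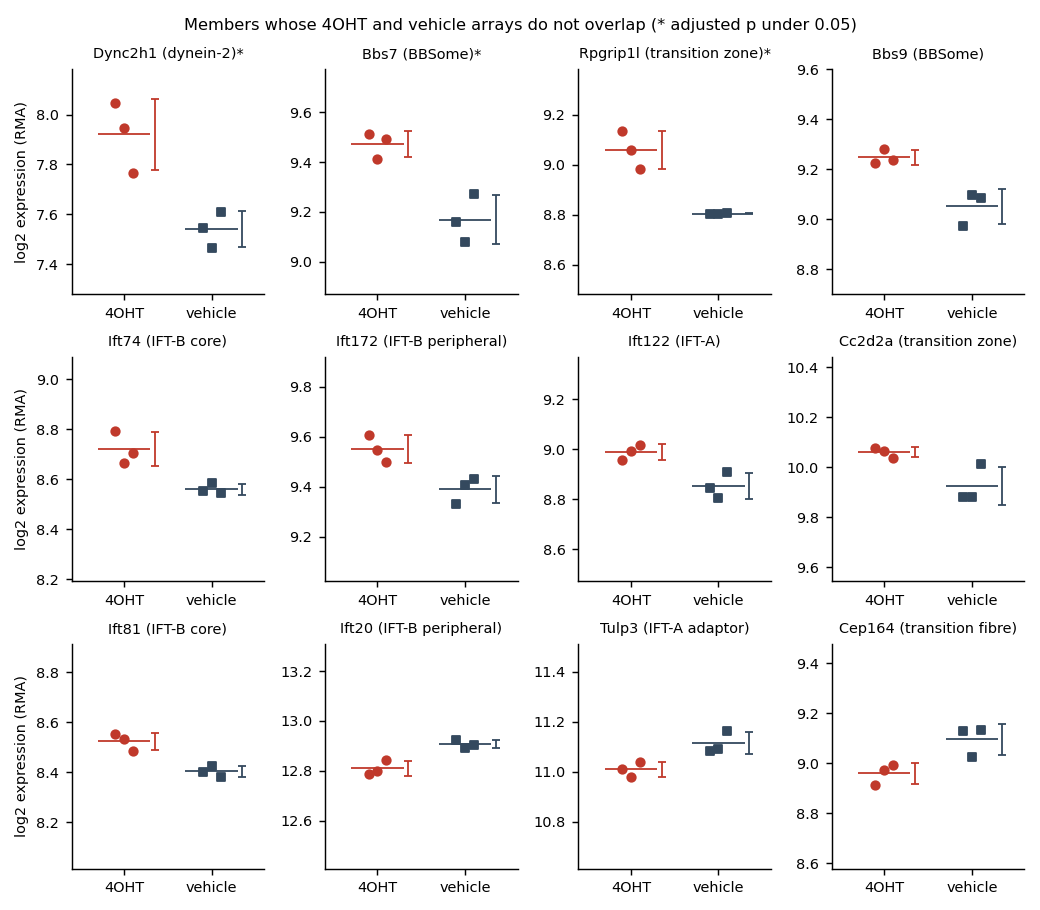
Log2 expression in each well of the 12 members whose groups do not overlap, 4OHT wells (red circles) left of vehicle wells (dark squares), with group means as lines and SD (n = 3) as bars; every panel spans the same log2 distance. Dync2h1, Bbs7 and Rpgrip1l stand apart most, and Ift20, Tulp3 and Cep164 are the 3 that lie lower in 4OHT wells.

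In the BBSome, Bbs7 and Bbs9 were the 2 members whose groups did not overlap. Bbs9 encodes a scaffold subunit, and in cells the products of Bbs2, Bbs7 and Bbs9 form the core onto which the rest of the BBSome is built. Bbs9 measured 9.23, 9.28 and 9.24 in 4OHT wells, against 8.97, 9.10 and 9.09 in vehicle wells. Its groups did not overlap, but with a log2 fold change of 0.20 it lay just outside the threshold (SE 0.05, adjusted p = 0.0549). It was called in 5 of 8 alternative fits, with the arrays centred on their medians (0.0447), quantile-normalized again (0.0278), weighted (0.0443), restricted to genes above the median level (0.0112) or fitted with a trended and robust variance (0.0204). Bbs2, the third core subunit, lay at -0.08 (95% interval -0.22 to 0.07). Bbs1, which binds the GTPase that recruits the BBSome to membranes, Bbs4 and the lipid-binding Bbs5 had log2 fold changes of -0.01, -0.11 and 0.01. The median of the 6 BBSome genes was 0.00, with 3 above 0 and 3 below.

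Bbs10 and Bbs12 encode chaperonin-like proteins that help the BBSome core to form. Bbs12 measured 7.66, 7.56 and 7.53 in 4OHT wells and 7.60, 7.79 and 7.70 in vehicle wells. These values overlapped, and the log2 difference was -0.11 (95% interval -0.26 to 0.05; 0.348 as adjusted p). Bbs10 had a log2 fold change of -0.07 with the widest interval below 0 of any member not called, to -0.30. Both stayed below 0 with any array left out.

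IFT-B is the larger transport complex, with a core and a peripheral part. None of its 11 measured members was called by limma, and their median was 0.00. 4 of the 11 had an unadjusted p under 0.05 by limma, all of them higher. Of all 22180 genes 26.4% did in either direction, 2706 higher and 3152 lower. Ift74 and Ift81 encode a pair of core subunits that bind each other and carry tubulin. Ift74 measured 8.80, 8.66 and 8.71 in 4OHT wells, against 8.55, 8.58 and 8.54 in vehicle wells. Its log2 fold change was 0.16 (adjusted p = 0.0886). Ift81 measured 8.55, 8.53 and 8.49 in 4OHT wells, against 8.40, 8.43 and 8.38 in vehicle wells. Both partners were thus higher in every 4OHT well, Ift81 with a log2 fold change of 0.12 (adjusted p = 0.128). Ift88, the core subunit lost in a classic mouse model of polycystic kidney disease, had a log2 fold change of 0.15 with overlapping groups (adjusted p = 0.176). The other core members, Ift52, Ift46 and the small GTPase gene Ift27, lay between -0.07 and 0.00.

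In the peripheral part of IFT-B, the subunits with non-overlapping groups lay on opposite sides of 0. Ift172 encodes the largest IFT-B subunit, which acts where trains turn round at the tip. It measured 9.61, 9.55 and 9.50 in 4OHT wells, against 9.33, 9.41 and 9.43 in vehicle wells (log2 fold change 0.16, adjusted p = 0.0985). Ift20 encodes a small subunit that also resides at the Golgi and helps to send membrane proteins to the cilium. It measured 12.79, 12.80 and 12.84 in 4OHT wells, against 12.92, 12.89 and 12.91 in vehicle wells. Every 4OHT well was lower, with a log2 fold change of -0.10 and an adjusted p of 0.196. Traf3ip1, also known as IFT54, Ift80 and Ift57 had log2 fold changes of 0.04, -0.04 and -0.01 with overlapping groups.

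The IFT-A genes had the smallest median size of change of the 9 roles, 0.01 on the log2 scale. IFT-A returns cargo from the tip and brings membrane receptors into the cilium. 4 of its 5 measured genes, Ift140, Wdr19, Wdr35 and Ift43, had log2 fold changes between -0.01 and 0.01, with 95% intervals from -0.16 to 0.14 at their widest. Ift122, a core subunit needed for ciliary entry of several membrane proteins, measured 8.96, 8.99 and 9.02 in 4OHT wells, against 8.84, 8.81 and 8.91 in vehicle wells. Its groups did not overlap, but it was not called (log2 fold change 0.14, adjusted p = 0.120). Tulp3 encodes the adaptor that ties membrane receptors to IFT-A and restrains hedgehog signalling in the mouse. It measured 11.01, 10.98 and 11.04 in 4OHT wells, against 11.08, 11.09 and 11.16 in vehicle wells. It lay lower in every 4OHT well and was not called (log2 fold change -0.10, 95% interval -0.21 to 0.00, adjusted p = 0.205).

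All 4 measured transition zone members lay above 0. Rpgrip1l, Cc2d2a, Tmem231 and Tmem67 had log2 fold changes of 0.25, 0.13, 0.10 and 0.05, with a median of 0.12. The 4 kept that sign under every scaling and with any array left out, where their median ranged from 0.09 to 0.16. Cc2d2a, which encodes a coiled-coil protein of the ring beneath the ciliary membrane, measured 10.08, 10.07 and 10.04 in 4OHT wells and 9.88, 9.88 and 10.01 in vehicle wells. Vehicle replicate 3 lay nearly at the 4OHT level, and the gene was not called (adjusted p = 0.163). Tmem67, the membrane receptor-like protein meckelin, and Tmem231 had overlapping groups. The second, dimmer probe set of Tmem67 had a log2 fold change of -0.02. Among 18 further measured transition zone genes, 10 lay above 0 and 8 below, with a median log2 fold change of 0.01, 1 called higher and 1 lower. No test was made of whether the transition zone members differed from the other roles.

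Cep164 sits below the gate, on the transition fibres that dock the centriole to the membrane and start cilium assembly. It measured 8.91, 8.97 and 8.99 in 4OHT wells, against 9.13, 9.02 and 9.13 in vehicle wells. Every 4OHT well was lower. It had the lowest log2 fold change of the 32 members, -0.14 (95% interval -0.26 to -0.02), and was not called (adjusted p = 0.145). Among the genes above the median level alone, where 35.0% of genes were called, its adjusted p was 0.0442.

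The 95% intervals are those of limma for the difference between group means. They rest on the spread of these RMA values between wells, with variances moderated across genes, and on no more. Over the 29 members not called they reached from -0.30, in Bbs10, to 0.32, in Bbs9, and 21 of the 29 included 0. A change of 2-fold in either direction lay outside the interval of every member, Dync2h1 included, whose upper bound was 0.57.

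1 vehicle array stood above the other vehicle arrays on average in these genes. The mean deviation of the 32 members from their own means over 6 arrays was 0.02, 0.03 and 0.02 in 4OHT wells, against -0.05, -0.04 and 0.03 in vehicle replicates 1, 2 and 3. Vehicle replicate 3 thus lay above all 4OHT wells on this average, and it lay above the other vehicle wells in every role except the chaperonin-like pair. Without it the median log2 fold change of the members was 0.03, with 22 of 32 above 0, and 1 member was called. The median of all genes in that fit was -0.002, and 8.48% of them were called, 3.99% higher.

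**Figure D4:**
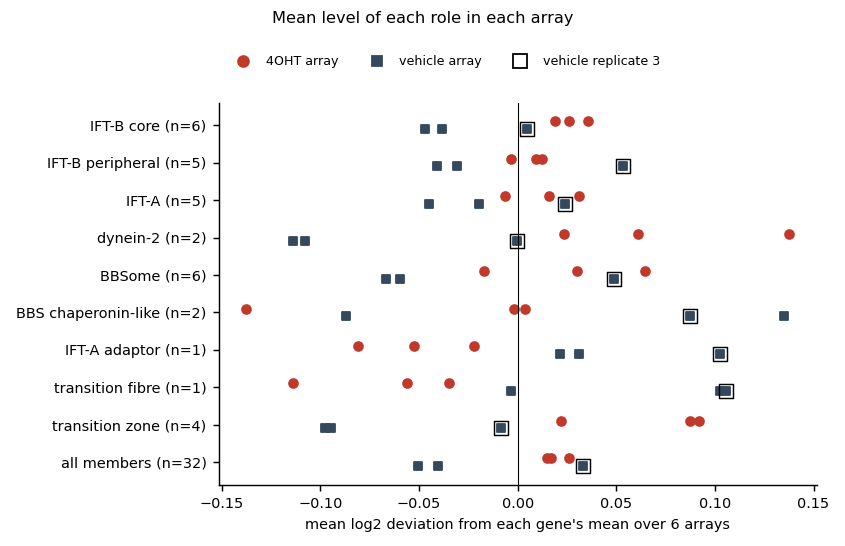
Mean log2 deviation of the genes of each role from their means over all 6 arrays, 1 point per array; 4OHT arrays are red circles, vehicle arrays dark squares, and vehicle replicate 3 is boxed. The 4OHT arrays lie above all vehicle arrays in the IFT-B core, dynein-2 and the transition zone and below them for Tulp3 and Cep164. Dynein-2 is a mean of 2 genes, Dync2h1 with a log2 fold change of 0.38 and Dync2li1 with -0.08. Over all members vehicle replicate 3 lies at 0.03.

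Cilium genes outside the members were read from lists written with earlier results of these data known. Of 67 further genes of IFT, kinesin-2, the BBSome, the transition zone, the transition fibres and the ciliary membrane, 57 were measured. 1 was higher and 4 were lower, 8.77% in all, with a median log2 fold change of -0.02. Cep290, which links the transition zone membrane to its microtubules, measured 7.94, 7.99 and 7.91 in 4OHT wells, against 7.57, 7.76 and 7.59 in vehicle wells. It rose by 0.31 on the log2 scale (adjusted p = 0.0229), and this was called without 4OHT replicate 3 or vehicle replicate 2 and missed without any other array (adjusted p up to 0.0885).

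The 4 lower genes fell by 0.21 to 0.30 on the log2 scale. Ofd1, a gene of the distal centriole and centriolar satellites, fell by 0.28 (adjusted p = 0.0212). Ttc30a1, an IFT-B gene with close paralogs whose signals the array may not separate, fell by 0.30 (adjusted p = 0.0376). It lay below the median level of all genes. Its measured paralogs Ttc30a2 and Ttc30b had log2 fold changes of 0.04 and -0.04 and were not called. Kifap3, the accessory subunit of the anterograde motor kinesin-2, fell by 0.28 (adjusted p = 0.0451), and Tmem237, a transition zone membrane protein gene, fell by 0.21 (adjusted p = 0.0462). With single arrays left out, Ttc30a1 and Tmem237 were called in none of 6 fits, Kifap3 without 4OHT replicate 3 alone and Ofd1 without 4OHT replicate 1, 4OHT replicate 3 or vehicle replicate 3. With the arrays centred on their medians, Kifap3 (adjusted p = 0.0548) and Tmem237 (0.0646) were not called. Among the motor genes Kifap3 was called lower and Dync2h1 higher with all 6 arrays, and the difference between them was not tested. Kif3a and Kif3b, the kinesin-2 motor subunits, had log2 fold changes of 0.07 and 0.02 and were not called.

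Most proliferation markers were lower in 4OHT wells. Of 11 measured proliferation markers, 10 were lower and none higher, with a median log2 fold change of -1.09. Their linear signal summed to between 6833 and 7297 in 4OHT wells and to between 11178 and 12318 in vehicle wells. Of 8 measured genes that act in cilium disassembly, 3 were lower, the mitotic kinase genes Plk1, Aurka and Nek2, with log2 fold changes of -1.51, -1.10 and -0.73. The other 5 were Kif24, Kif19a, Hdac6, Tchp and Kif2a, which lay between -0.14 and 0.06 and were not called. The 3 kinases also act in mitosis, and the part of the fall in dividing cells in the changes of the cilium genes was not tested.

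**Figure D5:**
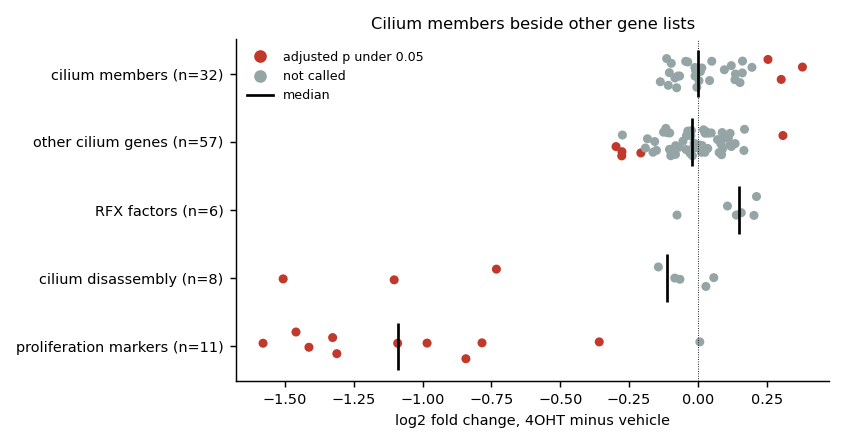
Log2 fold change, 4OHT minus vehicle, of each measured gene in 5 lists; red points passed an adjusted p of 0.05, grey points did not, and black lines are list medians. The 32 members and 57 other cilium genes centre near 0, while 10 of 11 proliferation markers and 3 of 8 disassembly genes lie to the left.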

How the data were processed

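The authors deposited RMA log2 values, 1 per probe set, for 6 single-colour arrays. Per the submitters' processing notes, the authors used oligo, RMA and limma, with no versions given. RMA corrects background, equalizes the arrays' distributions and summarizes probes on the log2 scale, which compresses the fold changes of dim genes and removes shifts common to all genes. No genome build is named in the labels. Detection calls were not used.

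Of 41345 probe sets, 23521 had 1 gene symbol, 1814 several and 16010 none. Those with 1 symbol gave 22180 genes, each read by its brightest probe set, with no filter on dim genes. 4OHT and vehicle wells (n = 3 each) were compared with limma 3.58.1 under R 4.3.3 (lmFit, eBayes, two-sided, 6.70 moderated degrees of freedom), with Benjamini-Hochberg adjustment over all genes and calls at an adjusted p under 0.05. The code was tested on simulated data. Values in every well are given for members called, members whose groups do not overlap and the member of smallest p in each role, and up to 4 called genes are named per further list. Members and lists were chosen with earlier results of these data known. Alternatives were a replicate block, other scalings, a level filter, other uses of probe sets, other variance estimates, array weights, other thresholds and leaving out each array.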

Additional observations from a re-analysis of the deposited data

How the results depend on the processing

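No gene called with all arrays, among the members and the other genes named, changed sign in any alternative run. Of 447 recomputed member values, 418 kept their side of the threshold, 17 lost a call and 12 gained one. 21 of 32 members kept their sign with any array left out. The count of members called was 0 to 2 with single arrays left out (0 to 2 higher, 0 lower), against 3 with all arrays, and the count of genes called was 1220 to 2326 (486 to 986 higher, 734 to 1340 lower), against 2662; these fits have fewer arrays. With the replicate number as a replicate block, 1568 genes (7.07%) were called (648 higher, 920 lower). 1 member, Bbs7 (adjusted p = 0.0439), was higher, where 2.92% of genes were. Rpgrip1l (0.0661) and Dync2h1 (0.0732) were not called. Nor were Ttc30a1, Ofd1, Tmem237 and Kifap3 (0.0617 to 0.0806), Ccno (0.0652) and Fto (0.0895). Same-numbered wells deviated from their group means with correlations of 0.06, -0.02 and 0.04. Differently numbered wells of the 2 groups gave -0.08 to 0.03. With 3 wells per group these values cannot settle whether the numbers pair the wells. With a trended and robust variance, 4123 genes (1828 higher, 2295 lower) were called, 18.6% of all genes with 8.24% higher. In that fit 6 of 32 members were called, 5 higher with Bbs9 and Ift172 added and 1, Ift20, lower. Among the 11090 genes above the median level, fewer genes were tested and the variances were moderated over these genes alone. In that fit 9 of 31 members were called, 8 higher (Bbs9, Ift74, Ift172, Ift122 and Ift81 added) and 1 lower (Cep164). Of the genes in that fit 35.0% were called, with 15.8% higher. At an adjusted p under 0.01, 0 of 32 members and 1010 genes (395 higher, 615 lower) were called, 4.55% of all genes. Under 0.10, 6 of 32 members were called, all higher, beside 3950 genes (1785 higher, 2165 lower). These were 17.8% of all genes, with 8.05% higher. Arrays centred on their medians gave 1406 genes higher (6.34%) and 1288 lower, against 1193 and 1469, and 4 of 32 members higher. The median change was then 0.02 in the members, against 0.00, and 0.02 over all genes, against -0.01. Apart from a changed threshold, the causes of the moved counts were not tested. Signal over background was not analysed here, so how it limits single members is unknown.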
